A study of Arabidopsis thaliana with 12 samples.

Results

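The genes described here belong to the galactinol synthase and raffinose synthase families and were measured in Arabidopsis thaliana seeds. The 7 loci, taken by locus number, were the galactinol synthase genes GOLS1 (AT2G47180), GOLS2 (AT1G56600), GOLS3 (AT1G09350) and GOLS4 (AT1G60470), and the raffinose synthase family genes RS5 (AT5G40390), RS4 (AT4G01970) and DIN10 (AT5G20250). They are 7 of the 36795 loci in the deposited tables, and 4 of them (GOLS1, GOLS2, RS4 and DIN10) passed the filter on low counts that left 18413 genes for testing. The study set seeds of the mutant odr1-2 against wild-type Col-0 seeds, each taken 12 h into a soak in 300 mM mannitol, used as osmotic stress, or in distilled water, its control. All seeds were after-ripened, meaning stored dry until dormancy is low, and all were kept moist at 4 °C for 2 days before the soak. The 4 groups were therefore odr1-2 in mannitol, odr1-2 in water, Col-0 in mannitol and Col-0 in water, with 3 biological replicate libraries of polyadenylated RNA in each. The mutant is represented by a single allele, and ODR1 expression itself was not analysed here.

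Galactinol synthase joins UDP-galactose to myo-inositol, and this step commits carbon to the raffinose family. Raffinose synthase then moves the galactosyl group of galactinol onto sucrose, and stachyose synthase moves another onto raffinose. Seeds store these sugars during maturation and break them down with alpha-galactosidases after imbibition, and in leaves the same pathway is known for its induction by drought, cold and heat. GOLS1 and GOLS2 are known in Arabidopsis as drought, salt and heat responsive genes and GOLS3 as a cold responsive gene. RS5 is the raffinose synthase of stressed leaves, RS4 makes stachyose and raffinose in seeds, and DIN10 was named for its rise in leaves held in the dark.

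Libraries held between 10060020 and 13693166 counts. A summed level of 7 seed storage and late embryogenesis markers lay between 9273 and 39508 TPM (a transcript level scaled to gene length and library size) in every library. Of 4 seed coat markers, BAN and TT10 had 1 count each over the 12 libraries, while GL2 had 845 and MUM2 had 135. Of 4 endosperm markers ZOU had 1 count, while EPR1 had 1095715, EXPA2 had 122287 and MAN7 had 40886. Replicates of a group differed by a chi-square of 2.01 to 2.80 per degree of freedom (1 would be counting error only) in the pairs that left out Col-0 mannitol replicate 2, and of 5.75 and 4.48 in the pairs that held it. That library also had the lowest level of the endosperm marker EPR1, 2055 TPM, against 3843 and 3937 TPM in the other Col-0 mannitol libraries. Each library is RNA from whole seeds, so fewer cells of a type and less RNA per cell cannot be told apart.

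The upstream sequences of the 5 members shown next were chosen because GOLS1, GOLS2 and RS4 moved together, DIN10 moved the other way, and GOLS3 had no read although its coding sequence is the nearest to that of GOLS2. Each run is the 300 bases before the annotated start, read 5′ to 3′ on the gene's own strand from the RefSeq genome of build TAIR10.1, while the submitters' processing notes name TAIR10 for the alignment. Capitals mark matches on either strand to the core of the abscisic acid response element (ABRE, ACGTG), the core of the dehydration responsive element (DRE, CCGAC), a short heat shock element (GAANNTTC) and the core of the RY element of seed genes (CATGCA). GOLS1 lies on chromosome 2 at 19368798 to 19370478 on the minus strand with 4 exons, and its window is chr2:19370479-19370778. GOLS2 lies on chromosome 1 at 21207537 to 21209635 on the plus strand with 4 exons, and its window is chr1:21207237-21207536. GOLS3 lies on chromosome 1 at 3019639 to 3021443 on the plus strand with 4 exons, and its window is chr1:3019339-3019638. RS4 lies on chromosome 4 at 853922 to 857401 on the minus strand, and its window, before the longer of 2 transcripts, is chr4:857402-857701. DIN10 lies on chromosome 5 at 6833564 to 6836862 on the plus strand with 4 annotated transcripts, and its window is chr5:6833264-6833563.
GOLS1: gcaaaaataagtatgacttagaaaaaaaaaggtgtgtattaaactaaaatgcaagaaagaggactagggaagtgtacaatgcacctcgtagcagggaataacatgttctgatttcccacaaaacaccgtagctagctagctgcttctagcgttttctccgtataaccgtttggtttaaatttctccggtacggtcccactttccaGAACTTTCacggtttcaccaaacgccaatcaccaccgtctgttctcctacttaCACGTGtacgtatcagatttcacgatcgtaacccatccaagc
GOLS2: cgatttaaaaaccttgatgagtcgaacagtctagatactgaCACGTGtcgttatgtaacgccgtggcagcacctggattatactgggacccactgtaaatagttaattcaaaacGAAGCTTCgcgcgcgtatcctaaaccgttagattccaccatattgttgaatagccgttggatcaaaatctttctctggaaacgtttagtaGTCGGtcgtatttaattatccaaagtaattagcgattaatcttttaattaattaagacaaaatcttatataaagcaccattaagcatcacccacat
GOLS3: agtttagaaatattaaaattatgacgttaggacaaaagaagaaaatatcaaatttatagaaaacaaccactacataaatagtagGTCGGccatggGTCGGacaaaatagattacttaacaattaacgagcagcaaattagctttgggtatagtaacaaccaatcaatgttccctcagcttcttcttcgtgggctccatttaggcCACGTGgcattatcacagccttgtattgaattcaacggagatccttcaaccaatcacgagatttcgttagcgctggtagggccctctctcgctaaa
RS4: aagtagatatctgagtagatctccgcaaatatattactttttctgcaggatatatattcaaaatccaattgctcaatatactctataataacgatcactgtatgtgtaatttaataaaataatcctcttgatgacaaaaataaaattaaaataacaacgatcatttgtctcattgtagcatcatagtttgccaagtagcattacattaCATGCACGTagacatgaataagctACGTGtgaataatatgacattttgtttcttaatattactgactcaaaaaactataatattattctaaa
DIN10: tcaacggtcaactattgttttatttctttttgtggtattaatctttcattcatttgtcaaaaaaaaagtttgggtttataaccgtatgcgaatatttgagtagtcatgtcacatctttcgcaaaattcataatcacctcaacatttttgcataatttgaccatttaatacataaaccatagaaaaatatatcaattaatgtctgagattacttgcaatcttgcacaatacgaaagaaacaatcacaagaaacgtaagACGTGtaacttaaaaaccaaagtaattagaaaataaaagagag

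The windows of GOLS1, GOLS2 and GOLS3 each held the palindrome CACGTG, which counts as 2 overlapping ABRE core matches, starting 42, 259 and 96 bases before the start. RS4 held 2 ABRE core matches, at 88 and 68 bases, of which the farther overlaps its RY core match at 92 bases. DIN10 held a single ABRE core match at 43 bases, so this core was present in the windows of genes that rose, of the gene that fell and of a gene with no reads. A heat shock element match stood at 95 bases in GOLS1 and at 186 bases in GOLS2. DRE core matches stood at 96 bases in GOLS2, at 216 and 205 bases in GOLS3 and at 152 bases in RS5. The window of GOLS4 held none of the 4 motifs. Among 27561 windows of the same length, 25.5% held the ABRE core, 13.9% the DRE core, 11.5% the heat shock element and 10.2% the RY core. A match is a description of letters, not a shown binding site.

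Among the 4 GOLS members, nearly all transcripts in these seeds came from GOLS1 and GOLS2. GOLS1 was at 131, 134 and 142 TPM in odr1-2 in mannitol, at 66.7, 68.2 and 65.4 TPM in odr1-2 in water, at 68.0, 65.5 and 66.6 TPM in Col-0 in mannitol, and at 24.7, 27.6 and 29.6 TPM in Col-0 in water. The mutant in mannitol was highest and the wild type in water lowest, and the libraries of odr1-2 in water and Col-0 in mannitol overlapped. GOLS2 was at 59.7, 54.0 and 59.6 TPM in odr1-2 in mannitol, at 12.7, 12.0 and 15.1 TPM in odr1-2 in water, at 26.6, 21.3 and 22.3 TPM in Col-0 in mannitol, and at 2.98, 3.12 and 2.71 TPM in Col-0 in water. No library of any group overlapped another group for GOLS2, and Col-0 in mannitol stood above odr1-2 in water. GOLS1 shares 43 exonic bases of its 1392 with AT2G47170, a gene on the opposite strand with 10398 counts in all. The strand setting of the counting is not given in the sources used here, so reads from those bases cannot be assigned.

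GOLS3 had 0 counts in each of the 12 libraries, out of 139026844 counts in all, which allows up to 0.0216 CPM (counts scaled to library size) over the whole series (3 counts, counting error only). GOLS4 had 0, 1 and 0 counts in odr1-2 in mannitol, 0, 1 and 0 in odr1-2 in water, 3, 0 and 1 in Col-0 in mannitol and 1, 1 and 2 in Col-0 in water. Its 10 counts in all leave no difference detectable at this depth. GOLS4 shares 33 exonic bases of its 1350 with the opposite-strand gene AT1G60460, which had 90 counts in all. Reads from those bases cannot be assigned either. The coding sequences of GOLS1 to GOLS4 agree at 70.7% to 83.3% of aligned bases, with GOLS2 and GOLS3 the nearest pair. The longest identical run between any 2 of these coding sequences is 26 bases. How multiply mapped reads were treated is not given in the sources used here.

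Of RS4 and RS5, the seed gene RS4 passed the filter on low counts and the leaf gene RS5 was close to absent. RS4 was at 32.7, 35.95 and 37.9 TPM in odr1-2 in mannitol, at 15.7, 17.4 and 15.6 TPM in odr1-2 in water, at 17.6, 15.9 and 17.25 TPM in Col-0 in mannitol, and at 3.27, 3.79 and 2.68 TPM in Col-0 in water. As for GOLS1, the libraries of odr1-2 in water overlapped those of Col-0 in mannitol, and both groups lay between the other groups. RS5 had 7, 2 and 9 counts in odr1-2 in mannitol, 6, 5 and 1 in odr1-2 in water, 2, 5 and 6 in Col-0 in mannitol and 6, 4 and 1 in Col-0 in water, at most 0.4 TPM. All its groups overlapped, and with no filter on low counts neither RS5 nor GOLS4 was called in any comparison.

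DIN10 ran the other way. It was at 17.3, 20.7 and 17.6 TPM in odr1-2 in mannitol, at 95.5, 94.3 and 102 TPM in odr1-2 in water, at 24.65, 26.35 and 25.9 TPM in Col-0 in mannitol, and at 178, 172 and 174 TPM in Col-0 in water. The groups did not overlap, and water-soaked wild-type seeds were highest and mannitol-soaked mutant seeds lowest. DIN10 shares 82 exonic bases of its 3120 with the opposite-strand gene AT5G20260, which had 57 counts in all against 22100 for DIN10.

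**Figure D1:**
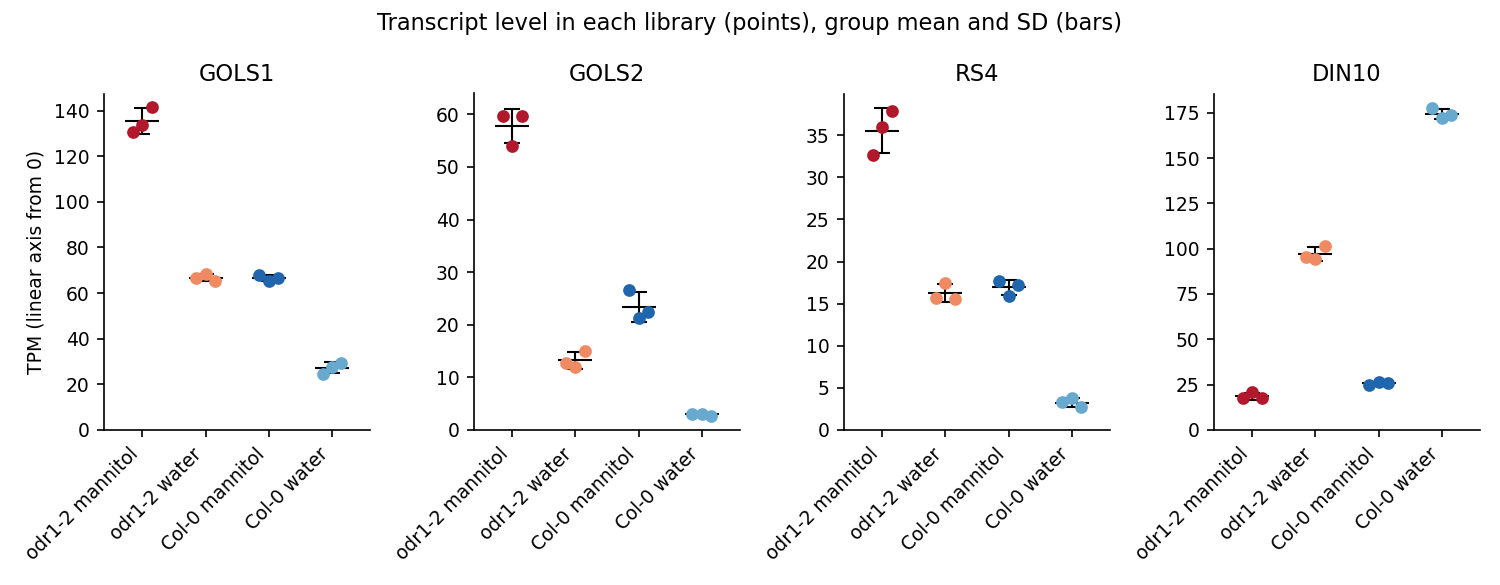
TPM of GOLS1, GOLS2, RS4 and DIN10 on linear axes from 0, with each library as a point and the mean and SD of 3 libraries as black bars. The first 3 genes are highest in odr1-2 in mannitol and lowest in Col-0 in water, while DIN10 is highest in Col-0 in water, at 172 to 178 TPM, and lowest in odr1-2 in mannitol, at 17.3 to 20.7 TPM.

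The order of the members by TPM differed between the groups. In odr1-2 in mannitol the order was GOLS1 (135 ± 5.68), GOLS2 (57.8 ± 3.26), RS4 (35.5 ± 2.67) and DIN10 (18.5 ± 1.87 TPM, SD, n = 3), with no overlap between neighbours. In odr1-2 in water it was DIN10 (97.15 ± 3.97), GOLS1 (66.8 ± 1.401), RS4 (16.2 ± 1.055) and GOLS2 (13.3 ± 1.60 TPM), again with no overlap. In Col-0 in mannitol it was GOLS1 (66.7 ± 1.24), DIN10 (25.6 ± 0.8855), GOLS2 (23.4 ± 2.84) and RS4 (16.9 ± 0.924 TPM), where DIN10 and GOLS2 overlapped. In Col-0 in water it was DIN10 (174.5 ± 2.78), GOLS1 (27.3 ± 2.44), RS4 (3.25 ± 0.555) and GOLS2 (2.94 ± 0.208 TPM), where RS4 and GOLS2 overlapped. DIN10 was thus the first member in both water groups, the fourth in stressed mutant seeds and second, overlapping GOLS2, in stressed wild-type seeds.

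Mannitol raised GOLS1, GOLS2 and RS4 and lowered DIN10 in both genotypes. Of the 4 tested members 3 rose in odr1-2 and 3 rose in Col-0, beside 21.2% of all genes tested that rose in odr1-2 and 21.0% in Col-0. DIN10 fell in both, beside 21.3% of all genes tested that fell in odr1-2 and 21.4% in Col-0. Among the rising members GOLS2 changed most: its log2 fold change was 2.22 ± 0.11 in odr1-2 (SE, edgeR adjusted p = 6.01e-29), with 31 of the 18413 genes rising more, and 3.04 ± 0.15 in Col-0 (adjusted p = 4.69e-28), with 8 genes rising more. RS4 rose by 1.23 ± 0.08 in odr1-2 (edgeR adjusted p = 2.67e-21) and by 2.44 ± 0.11 in Col-0 (adjusted p = 9.85e-30). GOLS1 rose by 1.12 ± 0.06 in odr1-2 (edgeR adjusted p = 1.79e-24) and by 1.34 ± 0.08 in Col-0 (adjusted p = 7.57e-25). DIN10 had a log2 fold change of -2.29 ± 0.06 in odr1-2 (edgeR adjusted p = 8.66e-43) and of -2.71 ± 0.06 in Col-0 (adjusted p = 7.70e-49), with 111 and 68 genes falling more.

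Seeds of odr1-2 differed from Col-0 seeds in the same directions as mannitol-soaked seeds differed from water-soaked seeds, in either soak. Of the 4 tested members 3 were higher in odr1-2 than in Col-0 in mannitol, beside 20.5% of all genes tested, and 3 were higher in water, beside 20.4%. DIN10 was lower in odr1-2 in both soaks, beside 19.6% of all genes tested that were lower in mannitol and 18.6% in water. RS4 differed by a log2 fold change of 1.14 ± 0.08 in mannitol (SE, edgeR adjusted p = 1.93e-19) and of 2.34 ± 0.11 in water (adjusted p = 1.34e-28). GOLS2 differed by 1.37 ± 0.10 in mannitol (edgeR adjusted p = 1.43e-19) and by 2.195 ± 0.163 in water (adjusted p = 6.79e-19). GOLS1 differed by 1.09 ± 0.07 in mannitol (edgeR adjusted p = 1.77e-23) and by 1.30 ± 0.08 in water (adjusted p = 3.69e-24). For DIN10 the log2 fold change was -0.41 ± 0.07 in mannitol (edgeR adjusted p = 8.71e-07) and -0.83 ± 0.05 in water (adjusted p = 1.86e-22). The mannitol and genotype comparisons share groups of libraries, so their values stand side by side and are not independent.

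**Figure D2:**
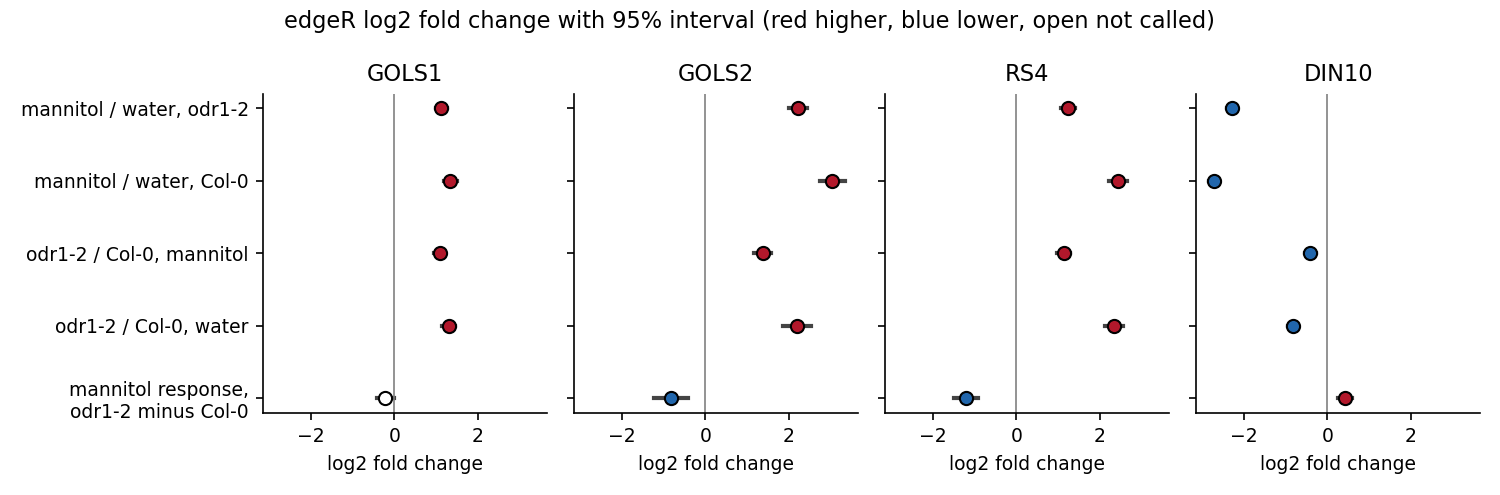
edgeR log2 fold change of GOLS1, GOLS2, RS4 and DIN10 with its 95% interval (horizontal lines) in the mannitol comparisons, the genotype comparisons and the difference of the mannitol responses. Red points are called higher, blue points called lower and the open point, the GOLS1 response difference of -0.21, is not called at an adjusted p of 0.05.

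The response to mannitol was smaller on the log2 scale in odr1-2 than in Col-0 for RS4, GOLS2 and DIN10. The difference of the log2 responses, odr1-2 minus Col-0, was -1.21 ± 0.14 for RS4 (SE, edgeR adjusted p = 1.60e-09), -0.82 ± 0.20 for GOLS2 (adjusted p = 0.00485) and 0.42 ± 0.09 for DIN10 (adjusted p = 0.000415). For GOLS1 it was -0.21 ± 0.10 (95% interval -0.41 to -0.01, edgeR adjusted p = 0.313) and was not called. Such differences were called below 0 for 2.67% of all genes tested and above 0 for 1.08%. The GOLS2 difference missed the threshold with limma-voom (adjusted p = 0.0559) and with limma on log2(TPM + 1) (adjusted p = 0.0548), and the DIN10 difference with limma on log2(TPM + 0.1) (adjusted p = 0.0516). On the TPM scale the rises had another order, and the level in water was higher in odr1-2 for these 3 rising genes. The mean of GOLS1 was 68.6 TPM higher in mannitol than in water in odr1-2 and 39.4 TPM higher in Col-0. GOLS2 was 44.5 TPM higher in odr1-2 and 20.5 TPM higher in Col-0, and RS4 was 19.3 TPM higher in odr1-2 and 13.7 TPM higher in Col-0. The mean of DIN10 fell by 78.6 TPM in odr1-2 and fell by 148.9 TPM in Col-0.

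Unstressed mutant seeds were set against stressed wild-type seeds after the values had been seen, since their GOLS1 and RS4 levels overlapped. In odr1-2 in water GOLS1 was at 66.8 ± 1.401 TPM, against 66.7 ± 1.24 TPM in Col-0 in mannitol (SD, n = 3 each). Its log2 fold change was -0.04 with a 95% interval of -0.17 to 0.10, and that of RS4 was -0.10 with an interval of -0.27 to 0.08. Neither was called (edgeR adjusted p = 0.701 and 0.406). GOLS2 was lower in odr1-2 in water than in Col-0 in mannitol, with a log2 fold change of -0.85 ± 0.11 (SE, edgeR adjusted p = 4.86e-09), and DIN10 was higher, with 1.88 ± 0.06 (adjusted p = 9.52e-39). In that comparison 19.5% of all genes tested were called higher and 18.4% lower. Stressed mutant seeds exceeded unstressed wild-type seeds by 4.96-fold for GOLS1, 19.7-fold for GOLS2 and 10.9-fold for RS4 in mean TPM, and DIN10 was at 0.106 of its wild-type water level.

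GOLS2 made up more of the galactinol synthase transcripts in mannitol and in the mutant. GOLS2 held 29.9 ± 1.34% of the summed TPM of the 4 GOLS members in odr1-2 in mannitol, 16.6 ± 1.94% in odr1-2 in water, 25.9 ± 1.905% in Col-0 in mannitol and 9.73 ± 1.23% in Col-0 in water (SD, n = 3). The sum itself was 193 ± 7.09, 80.1 ± 0.568, 90.25 ± 4.22 and 30.4 ± 2.36 TPM in the same order of groups. No 2 groups overlapped in that share. The log2 ratio of GOLS2 to GOLS1 differed by 1.11 between mannitol and water in odr1-2 and by 1.70 in Col-0, and by 0.29 between odr1-2 and Col-0 in mannitol and 0.88 in water, each with p = 0.1 by a two-sided exact permutation test, the smallest p that 3 against 3 libraries allow.

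RS4 and DIN10 changed order in stressed mutant seeds. The TPM ratio of RS4 to DIN10 was 1.93 ± 0.214 in odr1-2 in mannitol, 0.167 ± 0.0162 in odr1-2 in water, 0.661 ± 0.0566 in Col-0 in mannitol and 0.0186 ± 0.00331 in Col-0 in water (SD, n = 3). RS4 exceeded DIN10 in the 3 libraries of odr1-2 in mannitol and in no other library. The log2 ratio differed by 3.52 between mannitol and water in odr1-2 and by 5.16 in Col-0, each with an exact permutation p = 0.1, the smallest possible. The log2 ratio of RS4 to GOLS1 was -1.93 in odr1-2 in mannitol, -2.04 in odr1-2 in water, -1.98 in Col-0 in mannitol and -3.08 in Col-0 in water. It overlapped between the soaks in odr1-2 (difference 0.11, exact permutation p = 0.2) and between the genotypes in mannitol (difference 0.05, exact permutation p = 0.5). It did not overlap between the soaks in Col-0 (difference 1.10) or between the genotypes in water (difference 1.04), each with an exact permutation p = 0.1.

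**Figure D3:**
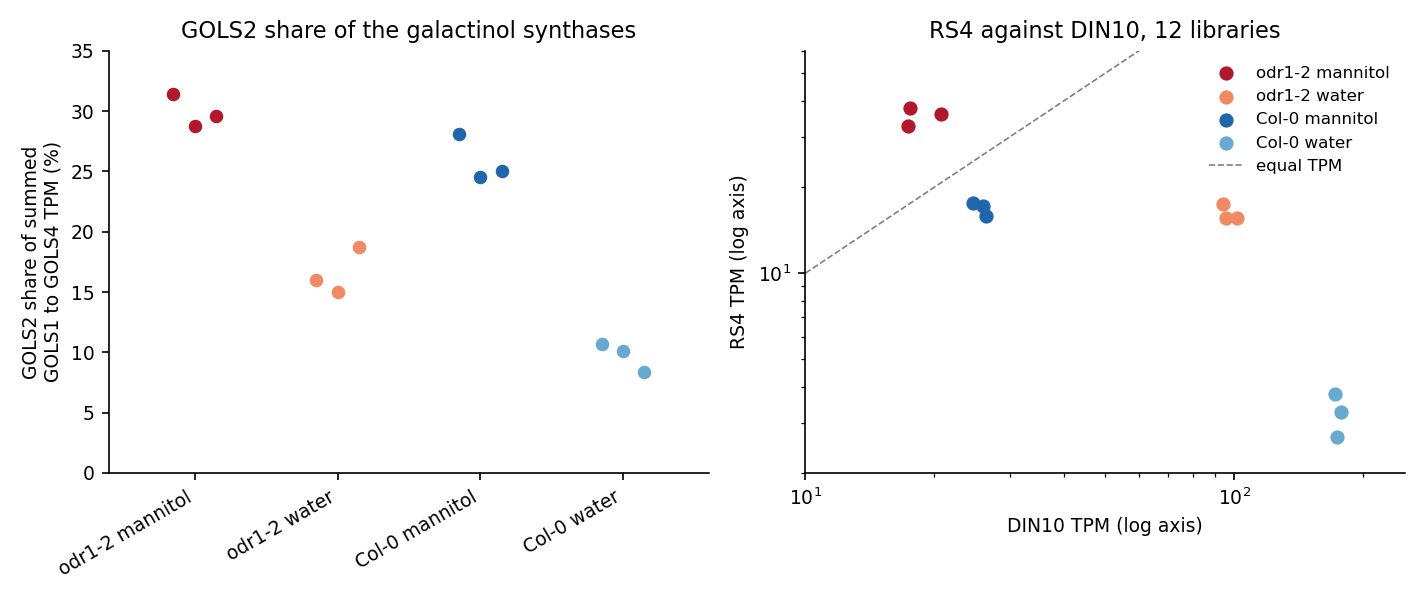
Left, the share of GOLS2 in the summed TPM of GOLS1 to GOLS4 in percent, with a point per library, from 8.35 to 10.7% in Col-0 in water up to 28.7 to 31.4% in odr1-2 in mannitol. Right, RS4 against DIN10 in TPM on log axes for the 12 libraries, with the dashed line marking equal TPM, above which the 3 libraries of odr1-2 in mannitol lie.

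Other members of both families were few and did not all move alike. Of 6 further GOLS loci, 3 were tested and GOLS6 had 0 counts. Of those tested, 2 rose and 1 fell with mannitol in odr1-2, and 1 rose and 1 fell in Col-0. In odr1-2, 2 were higher than in Col-0 in mannitol and 1 in water. The medians of their log2 fold changes were 1.11, 0.68, 0.91 and 1.01 in the same order. Over all genes tested, 21.2% rose and 21.3% fell with mannitol in odr1-2, and 21.0% rose and 21.4% fell in Col-0. Higher in odr1-2 than in Col-0 were 20.5% in mannitol and 20.4% in water. Counts among so few genes are a description only. GOLS10 (AT5G30500) rose with mannitol by a log2 fold change of 1.11 ± 0.18 in odr1-2 (SE, edgeR adjusted p = 6.21e-07) and of 1.51 ± 0.23 in Col-0 (adjusted p = 8.22e-08), and was at 12.4 ± 0.955 TPM in odr1-2 in mannitol, 6.20 ± 1.27 in odr1-2 in water, 6.92 ± 1.15 in Col-0 in mannitol and 2.51 ± 0.205 TPM in Col-0 in water (SD, n = 3), where it was close to GOLS2. GOLS5 (AT5G23790) was at 3.02 ± 1.16 TPM in odr1-2 in mannitol and at 0.583 ± 0.34 TPM in Col-0 in water. With mannitol it was called in odr1-2, at 1.42 ± 0.46, but not without odr1-2 mannitol replicate 1 (edgeR adjusted p = 0.109). GOLS8 stayed under 1.2 TPM and fell with mannitol, with log2 fold changes of -2.16 in odr1-2 and -1.92 in Col-0, calls that were lost in 2 and 8 of 23 alternatives. The seed imbibition proteins SIP1 (AT1G55740) and SIP2 (AT3G57520) belong to the raffinose synthase family, and SIP2 is known as a raffinose-cleaving alpha-galactosidase. Both were higher in odr1-2 in either soak, with median log2 fold changes of 0.81 in mannitol and 0.66 in water, while with mannitol 1 rose and 1 fell in odr1-2 (median -0.04) and 1 fell in Col-0 (median -0.19). SIP1 was at 164 ± 2.33 TPM in odr1-2 in mannitol, 162 ± 2.63 in odr1-2 in water, 72.8 ± 5.22 in Col-0 in mannitol and 81.8 ± 0.546 TPM in Col-0 in water. It thus followed the genotype, with log2 fold changes of 1.24 ± 0.05 in mannitol (edgeR adjusted p = 5.95e-33) and 1.001 ± 0.049 in water (adjusted p = 2.65e-28). Its rise with mannitol in odr1-2, 0.12 ± 0.05, was lost in several alternatives, among them total count scaling (edgeR adjusted p = 0.404). SIP2 was the most abundant gene of the family, at 313 ± 2.00, 386.5 ± 3.195, 251 ± 15.4 and 314 ± 9.525 TPM in the same order of groups.

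The enzymes that feed the pathway were read from lists of myo-inositol synthesis, UDP-galactose epimerase and sucrose genes. Of all genes tested, 42.5% were called in either direction with mannitol in odr1-2, 42.4% in Col-0, 40.1% between the genotypes in mannitol and 39.0% in water, and the counts of each list stand beside these shares. Of 5 tested genes of myo-inositol synthesis, 3 rose and 1 fell with mannitol in odr1-2, 2 rose and 1 fell in Col-0, 3 were higher and 2 lower in odr1-2 than in Col-0 in mannitol, and 2 were higher and 2 lower in water. The medians of their log2 fold changes were 0.57, -0.01, 0.88 and 0.31, beside medians over all genes of -0.0035, 0.0031, -0.0012 and -0.0018. MIPS1 and MIPS2 encode the myo-inositol phosphate synthase that starts the route. MIPS1 was at 99.4 ± 3.82 TPM in odr1-2 in mannitol, 52.35 ± 4.16 in odr1-2 in water, 44.3 ± 1.415 in Col-0 in mannitol and 22.0 ± 1.26 TPM in Col-0 in water, and MIPS2 at 21.8 ± 2.04, 7.06 ± 0.474, 7.10 ± 0.649 and 2.56 ± 0.395 TPM. With mannitol MIPS2 rose by 1.73 ± 0.12 in odr1-2 and by 1.52 ± 0.17 in Col-0, and MIPS1 by 1.02 ± 0.06 and 1.07 ± 0.07. VTC4, an inositol monophosphatase, fell, with log2 fold changes of -0.74 in odr1-2 and -0.44 in Col-0. The response differences of MIPS1 (-0.04 ± 0.10) and MIPS2 (0.21 ± 0.22) between the genotypes were not called.

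Of 5 UDP-galactose epimerase genes, which make the sugar donor of galactinol synthase, 2 rose and 1 fell with mannitol in either genotype. Over all genes tested, 42.5% were called in either direction with mannitol in odr1-2 and 42.4% in Col-0. Of the 5, 3 were higher in odr1-2 in mannitol, beside 20.5% of all genes tested, and 4 in water, beside 20.4%. The UGE4 call in water (log2 fold change 0.33 ± 0.13, SE, edgeR adjusted p = 0.0452) was lost in 11 of 25 alternatives. The medians were 0.17 and -0.03 with mannitol in odr1-2 and Col-0, and 0.52 and 0.33 for odr1-2 against Col-0 in mannitol and water. UGE5 rose with mannitol by 0.69 ± 0.17 in odr1-2 and by 1.09 ± 0.20 in Col-0, UGE3 by 0.40 ± 0.07 and 0.45 ± 0.07, and UGE1, the most abundant, had log2 fold changes of -0.31 and -0.16. Of 6 tested sucrose genes 4 rose with mannitol in odr1-2 and 5 in Col-0, 3 were higher in odr1-2 in either soak, and none was called lower. Their medians were 0.50 and 0.49 with mannitol and 0.19 and 0.29 between the genotypes. The sucrose synthase SUS3 was at 204 ± 2.24 TPM in odr1-2 in mannitol, 112 ± 4.16 in odr1-2 in water, 94.4 ± 6.78 in Col-0 in mannitol and 31.4 ± 1.49 TPM in Col-0 in water. Like RS4, SUS3 and the sucrose phosphate synthase SPSB had smaller log2 responses in odr1-2 than in Col-0, with differences of -0.67 ± 0.07 (SE, edgeR adjusted p = 3.17e-11) and -0.75 ± 0.08 (adjusted p = 2.66e-11). SUS4 and SUS5 had 0 counts.

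Of 3 alpha-galactosidases, which remove galactose from these sugars, none rose and 1 fell with mannitol in odr1-2, 2 rose in Col-0, and 2 were higher in odr1-2 than in Col-0 in either soak. The medians were 0.10 and 0.22 with mannitol in odr1-2 and Col-0, and 0.30 and 0.77 between the genotypes in mannitol and water. Over all genes tested, the shares called in either direction were 42.5%, 42.4%, 40.1% and 39.0% in the same order. AGAL1 was at 26.55 ± 2.60 TPM in odr1-2 in mannitol, 26.6 ± 2.715 in odr1-2 in water, 15.01 ± 0.929 in Col-0 in mannitol and 10.7 ± 1.401 TPM in Col-0 in water. It differed between odr1-2 and Col-0 by 0.88 ± 0.11 in mannitol and by 1.32 ± 0.12 in water on the log2 scale. The call of AGAL2 with mannitol in odr1-2 (-0.89 ± 0.37, edgeR adjusted p = 0.0440) was lost in 9 alternatives, and those of AGAL3, from 0.21 to 0.26, were also lost in some.

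Among transcription factors reported to act upstream of GOLS genes, 3 of 4 tested rose with mannitol in both genotypes and were higher in odr1-2 in both soaks. The medians were 0.60 and 0.63 with mannitol in odr1-2 and Col-0, and 0.61 and 0.64 between the genotypes in mannitol and water. Over all genes tested, 21.2% rose with mannitol in odr1-2 and 21.0% in Col-0. In odr1-2, 20.5% were higher than in Col-0 in mannitol and 20.4% in water. The heat shock factor HSFA2 was at 51.15 ± 1.91 TPM in odr1-2 in mannitol, 27.5 ± 0.971 in odr1-2 in water, 18.9 ± 0.660 in Col-0 in mannitol and 11.2 ± 0.660 TPM in Col-0 in water. Its log2 fold change with mannitol was 1.0 ± 0.08 in odr1-2 and 0.81 ± 0.10 in Col-0. HSFA1B rose by 0.70 ± 0.09 and 0.79 ± 0.10, and DREB2A, which binds the DRE, by 0.50 ± 0.06 and 0.46 ± 0.06. The HSFA1B difference between odr1-2 and Col-0 in mannitol, 0.28 ± 0.09, was lost without odr1-2 mannitol replicate 3 (edgeR adjusted p = 0.0701). HSFA1A was not called in any of the 5 planned comparisons. CBF1 and CBF3, cold response factors of which CBF3 is known to act on GOLS3, had 0 counts, and CBF2 had 13 counts in all.

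**Figure D4:**
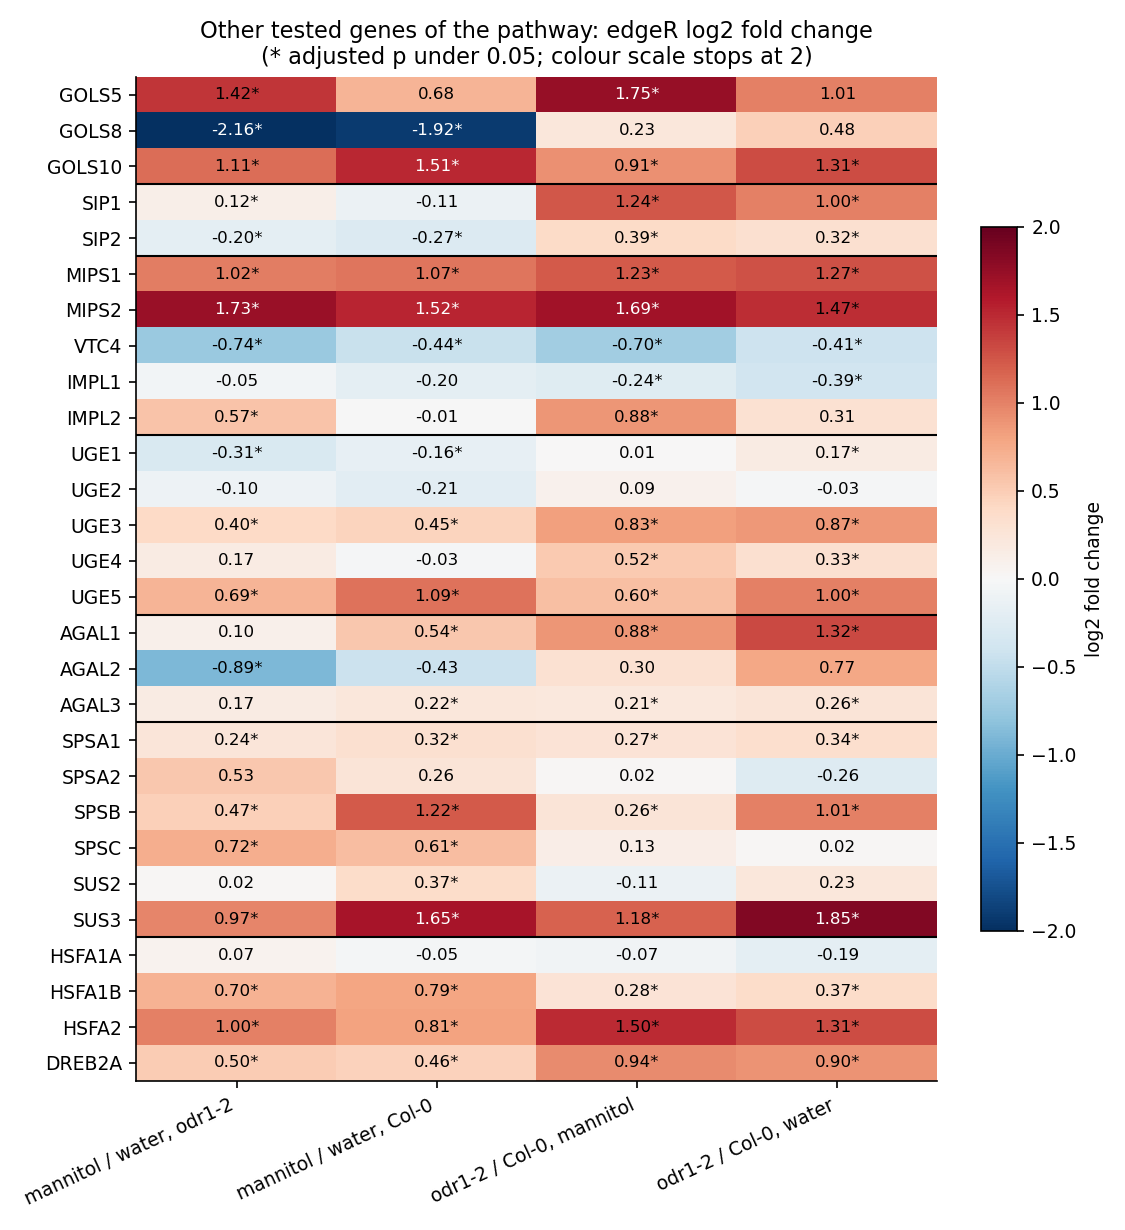
edgeR log2 fold changes of the other 28 tested genes of the pathway lists in the mannitol and genotype comparisons, with an asterisk where the adjusted p is under 0.05 and a colour scale that stops at 2. MIPS1, MIPS2, SUS3, SPSB, SPSA1, GOLS10, UGE3, UGE5, HSFA1B, HSFA2 and DREB2A are called higher in every column, and VTC4 is called lower in every column.

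General seed markers moved in the same direction as GOLS1, GOLS2 and RS4. Their summed level was 38947 to 39508 TPM in odr1-2 in mannitol, 23157 to 23522 in odr1-2 in water, 23738 to 25297 in Col-0 in mannitol and 9273 to 9401 TPM in Col-0 in water, with none of the 7 markers at 0. All 7 rose with mannitol in both genotypes and were higher in odr1-2 in water, and 6 of 7 were higher in odr1-2 in mannitol. The response difference was called below 0 for 6 of 7. Over all genes tested, 21.2% rose with mannitol in odr1-2 and 21.0% in Col-0. In odr1-2, 20.5% were higher than in Col-0 in mannitol and 20.4% in water. A response difference below 0 was called for 2.67%. Endosperm markers summed to 9352 to 10127 TPM in odr1-2 in mannitol, 8630 to 9586 in odr1-2 in water, 3047 to 4980 in Col-0 in mannitol and 3478 to 3853 TPM in Col-0 in water, and 3 of 3 tested were higher in odr1-2 in either soak. Most of that sum was EPR1, and without it the sums were 1646 to 1692 TPM in odr1-2 in mannitol, 2198 to 2267 in odr1-2 in water, 992 to 1043 in Col-0 in mannitol and 1055 to 1058 TPM in Col-0 in water. These sums were lower in mannitol than in water in both genotypes, and EXPA2 made up most of them. In the tests with mannitol, EXPA2 was called lower in odr1-2 only, at -0.36. MAN7 was called higher in Col-0 only, at 0.50, and no other endosperm marker was called. Seed coat markers summed to 2.33 to 2.83 TPM in odr1-2 in mannitol, 3.21 to 3.56 in odr1-2 in water, 3.02 to 3.83 in Col-0 in mannitol and 4.62 to 5.16 TPM in Col-0 in water. Of 2 tested, GL2 was called lower with mannitol in both genotypes and lower in odr1-2 in both soaks, the directions of DIN10. Its log2 fold changes were -0.76 in odr1-2 and -0.50 in Col-0 with mannitol, and -0.87 in mannitol and -0.61 in water between the genotypes. The GL2 call with mannitol in Col-0 was lost in 5 of 25 alternatives, among them without Col-0 mannitol replicate 2 (edgeR adjusted p = 0.146). Over all genes tested, 21.3% fell with mannitol in odr1-2 and 21.4% in Col-0. Lower in odr1-2 than in Col-0 were 19.6% in mannitol and 18.6% in water. MUM2, the other marker tested, was called only as higher in odr1-2 than in Col-0 in mannitol, by 1.34 ± 0.49 (SE, edgeR adjusted p = 0.0227). That call was lost in 6 of 24 alternatives. The part of these marker levels in the results above was not tested.

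Over the 12 libraries the log2 levels of GOLS1, GOLS2 and RS4 went together, with Pearson r of 0.976 to 0.978, and against DIN10, with r of -0.859 to -0.937. These values describe 4 groups of 3 libraries and carry no test, and the points share their group and library scaling. Among 12464 candidate genes, the genes nearest to GOLS1 were AT3G15260, the ferritin gene FER2 and AT5G49990 (r = 0.997, 0.997 and 0.997). Nearest to GOLS2 were HSD5, SESA5 and AT5G06370 (r = 0.996, 0.996 and 0.996). Nearest to RS4 were AT1G27990, the cruciferin gene CRA1 and BGLU19 (r = 0.996, 0.995 and 0.994), and nearest to DIN10 were the beta-galactosidase gene BGAL1, CAD9 and the abscisic acid receptor gene PYL6 (r = 0.994, 0.991 and 0.991).

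Without Col-0 mannitol replicate 2, the library that stood apart from its replicates, the calls of the 4 members were the same in every comparison. The log2 fold changes with mannitol in Col-0 were then 1.33 for GOLS1, 3.09 for GOLS2, 2.46 for RS4 and -2.75 for DIN10, and those of odr1-2 against Col-0 in mannitol 1.09, 1.33, 1.11 and -0.37. The response differences were -0.21, -0.87, -1.23 and 0.46.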

How the data were processed

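The count values are the deposited reads per gene of 12 libraries, made by the authors with fastp 0.23.1, HISAT2 2.2.1 and HTSeq 2.0.5 on build TAIR10, per the submitters' processing notes. TPM values were deposited by the authors in a second table; how they took gene length is not stated. Counts divided by TPM followed RefSeq exon length to within 1% in 7361 of the 7363 genes that had 200 or more counts in every library. Of 36795 locus numbers 36632 matched that annotation and 163 did not. No column of the tables was left unused.

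Tests across genes ran on counts with the edgeR 4.0.16 quasi-likelihood method (R 4.3.3, TMM scaling, robust spread), with filterByExpr at a minimum count of 10 and a minimum total of 15. The 12 libraries entered 1 fit of 4 group means, and p-values were adjusted by Benjamini-Hochberg over 18413 genes with a threshold of 0.05. The standard error is the log2 fold change divided by the square root of F. TPM served for levels, orders, differences and ratios of levels and 2 of the alternatives. TPM ratios were compared with exact permutation tests (SciPy 1.17.1). The fit was tested on simulated data.

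The members and lists were chosen with earlier results of these data known. All 7 members were named in every comparison. From each other list the called genes of largest log2 change in either direction were named, up to 3 and averaging 1 CPM or more, and GOLS8, HSFA1A and genes at 0 counts were added after their values were seen. Per tested member the 3 genes of highest Pearson r of log2 CPM, averaging 10 CPM or more in any group, were named.

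Alternatives were DESeq2 1.42.0 size factors and Wald test, total count scaling, upper-quartile scaling, a stricter filter and none, limma 3.58.1 (voom, and trend on log2(TPM + 1) and log2(TPM + 0.1)), a replicate block, spread not estimated robustly, the 2 compared groups fitted alone, a stricter threshold and leaving out each library. The replicates are labelled biological, but nothing says whether seeds came from separate plants, so p-values measure the spread between these samples. Sequences and coordinates are from RefSeq TAIR10.1 (Biopython 1.88).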

Additional observations from a re-analysis of the deposited data

Results flagged for a closer look

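For 3 of the members the mannitol response differed between the genotypes in the test of the difference itself, edgeR's interaction contrast over 12 libraries. The log2 response of odr1-2 minus that of Col-0 was -1.21 for RS4 (edgeR adjusted p = 1.60e-09), -0.82 for GOLS2 (adjusted p = 0.00485) and 0.42 for DIN10 (adjusted p = 0.000415). Each is a smaller response in odr1-2 in the same direction as in Col-0, since all 3 libraries in mannitol lay beyond all 3 in water in both genotypes.

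The same test set apart 3 other genes of the lists. The difference was -0.75 for the sucrose phosphate synthase SPSB (edgeR adjusted p = 2.66e-11), -0.67 for the sucrose synthase SUS3 (adjusted p = 3.17e-11) and 0.23 for SIP1 (adjusted p = 0.0350). The SIP1 difference missed the threshold in 14 of 24 alternatives, with adjusted p from 0.0117 to 0.214 over them.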

How the results depend on the processing

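The calls of GOLS1, GOLS2, RS4 and DIN10 in the mannitol and genotype comparisons had the same direction and side of the threshold in all 25 alternatives. For the response difference, RS4 was called in all 24 alternatives (-1.34 to -1.001), GOLS2 in 22 (-0.89 to -0.58), DIN10 in 23 (0.33 to 0.47) and GOLS1 in none. At an adjusted p under 0.01 the genes called in that comparison numbered 450, against 690 at 0.05, and all other counts of genes called lay within 1.5 times. Leaving out libraries gave 558 to 917 there.

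With a replicate block the same members were called. There were 4 in each mannitol and genotype comparison, 3 for the response difference and 2 for odr1-2 in water against Col-0 in mannitol. The genes called numbered 7926 and 7898 with mannitol in odr1-2 and Col-0, 7468 and 7265 for the genotypes in mannitol and water, and 757 for the response difference. Deviations of libraries with the same number correlated at -0.03 to 0.01, and those with other numbers at -0.02 to 0.02. Nothing in the labels says whether equal numbers mark a shared batch, and these correlations cannot settle it.

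Scaling moved the balance of all calls. With mannitol in odr1-2 3907 genes rose and 3919 fell, against 3068 and 4955 with total count scaling, 2519 and 5152 with limma on log2(TPM + 1), and 2446 and 5108 on log2(TPM + 0.1), where the median over all genes was -0.11. For odr1-2 against Col-0 in mannitol, 3779 and 3603 became 2909 and 4264 on log2(TPM + 1) and 2878 and 4281 on log2(TPM + 0.1), and for the response difference 199 and 491 became 97 and 471 on log2(TPM + 0.1); the cause was not tested. Low counts limit GOLS4 and RS5, and the floor of GOLS3 covers counting error only.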
